A study of Mus musculus with 2 samples.

Results

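Cholangiocytes are the epithelial cells that line the bile ducts, and 104 of 6183 kept cells from the liver of a Gimap5 sph/+ mouse carried at least 3 unique molecular identifiers (UMIs, counts of single captured transcripts) of the biliary genes Krt19, Krt7 and Epcam together. That was 1.68% of the kept cells (exact Clopper-Pearson 95% interval 1.38 to 2.03). The members were therefore chosen by their measured values of those 3 genes, and their levels of them are a description. Of the 104 cells, 46 had fewer than 3 Clec4g UMIs and 58 had at least 3. Clec4g encodes a lectin of liver sinusoidal endothelial cells (LSECs), so the 58 are possible mixtures and were kept apart. Among the 104, 7 cells, 4 of the 46 and 3 of the 58, carried at least 3 UMIs of mesothelial genes and are described separately. This left 42 Clec4g-low and 55 Clec4g-positive cholangiocyte-like cells. They were set beside 5862 sph/+ cells with at least 3 Clec4g UMIs and none of the 3 genes, called sinusoidal cells below.

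The study sorted live liver endothelium, negative for DAPI and CD45 and positive for CD31 (encoded by Pecam1), from 1 Gimap5 sph/sph adult mouse and 1 Gimap5 sph/+ adult mouse, both on the C57BL/6 background. The sph allele of Gimap5, a GTPase of lymphocytes and endothelium, is carried on 1 chromosome copy by all the sph/+ cells. The sph/sph cells carry the allele on both copies, and no mouse without it was analysed. Each mouse gave 1 droplet library, so cells share their mouse and library, no test was possible, and every interval covers counting error only. CD31 marks endothelium and biliary epithelium lacks it, so these cells passed a sort that was not designed to keep them.

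Most cells in the deposited matrices appear in duplicate. Barcodes of the sph/+ library end in 1 of 2 suffixes, and 6391 of its 6745 distinct 16-base barcodes (94.8%) carry both. In 300 such pairs the 2 entries differed less than independent draws would, with a median ratio of observed to binomial variance of 0.415, against 1.73 between entries of different barcodes. The sph/sph library gave 0.493 and 3.27, and 89.3% of its barcodes had both entries. All 104 members had both entries, and both passed the rule in 101. Since the labels do not explain the suffix, 1 entry was kept for each barcode, the one with more UMIs. Counted as deposited, 206 entries of 105 distinct 16-base barcodes passed the rule. In 8 members the 2 entries fell on different sides of the Clec4g threshold. The libraries shared 17 barcodes, of which 1 belonged to a member.

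**Figure D1:**
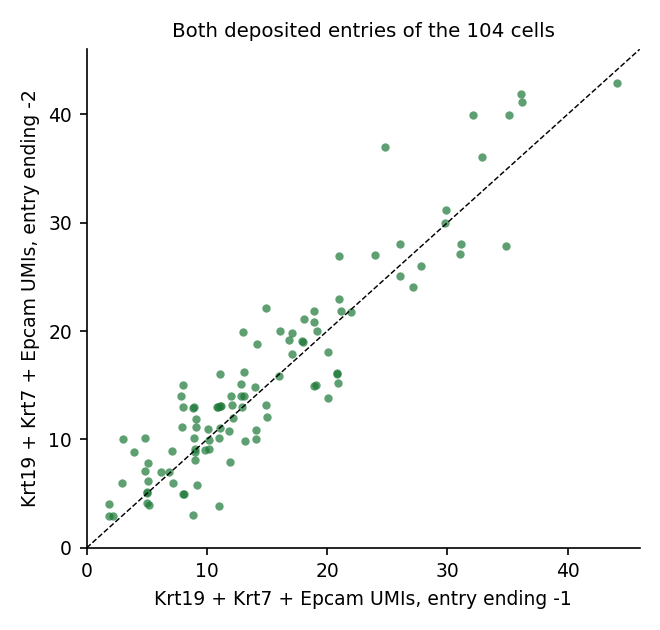
Summed UMIs of Krt19, Krt7 and Epcam in the 2 deposited entries of each of the 104 member cells, with the entry ending in -1 on the x axis and the entry ending in -2 on the y axis; the dashed line marks equal counts and points are shifted slightly to separate them. The points follow the line up to sums above 40.

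Bile ducts collect bile from hepatocytes, and their lining cells alter it by secreting bicarbonate and water and by taking up solutes. Cholangiocytes are joined by epithelial junctions, build their cytoskeleton from simple keratins, carry a primary cilium that senses flow, and depend on transcription factors such as SOX9 and those of the ONECUT family. Ducts lie in the portal tracts beside the portal vein and hepatic artery, outside the sinusoids from which LSECs come.

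The 3 genes that define the members lie on different mouse chromosomes. In GRCm38 (GENCODE vM21), Krt19 lies at chr11:100140810-100148665 on the minus strand, Krt7 at chr15:101411043-101430313 on the plus strand, and Epcam at chr17:87635979-87651129 on the plus strand. Epcam, an epithelial adhesion protein, was found in all 42 Clec4g-low cholangiocyte-like cells, with 1 to 24 UMIs and a median of 9. Krt19, a keratin of ducts, had a median of 4.5 UMIs and a maximum of 21, and was missing in 1 cell. Krt7, a second ductal keratin, had a median of 1.5 UMIs and a maximum of 5 in 35 of the 42 cells. All 3 genes were found together in 34 of the 42 cells, Krt19 with Epcam in 7, and Krt7 with Epcam in 1. At the edge of the rule, 3 members had a sum of exactly 3, and these had 10, 21 and 62 UMIs of Spp1. Just outside it lay 2 cells with a sum of 2, both with at least 3 mesothelial UMIs, and 28 cells with a sum of 1.

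**Figure D2:**
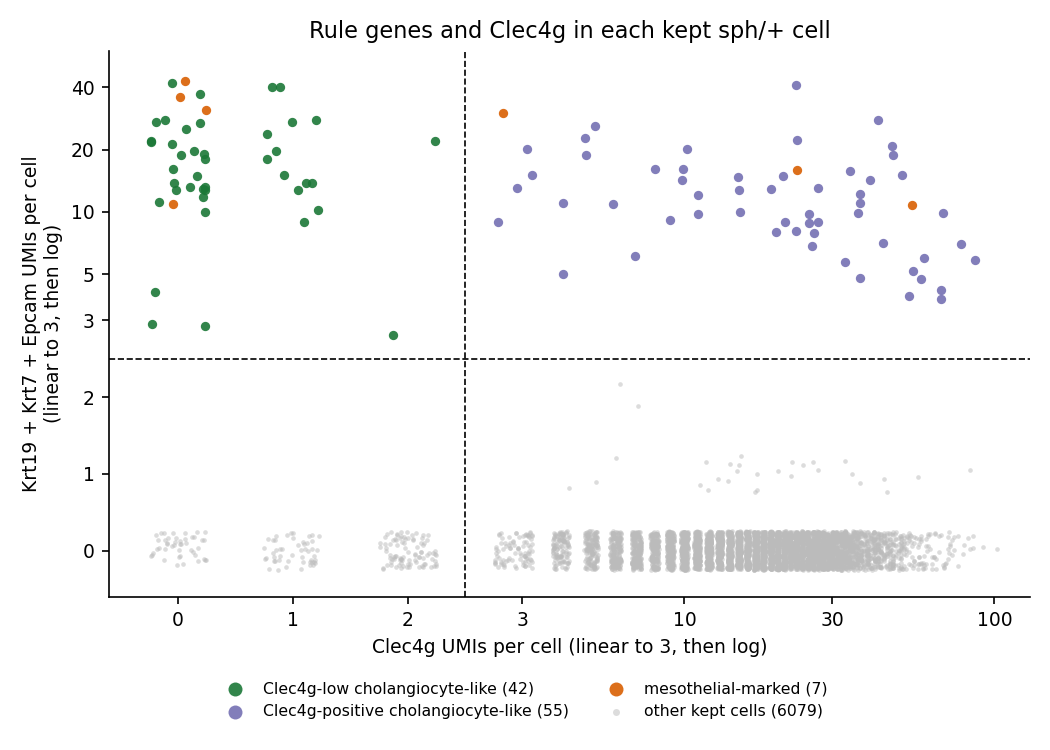
UMIs of Clec4g (x axis) and summed UMIs of Krt19, Krt7 and Epcam (y axis) in each of the 6183 kept sph/+ cells, with dashed lines just below the thresholds of 3 UMIs; both axes are linear to 3 and logarithmic above it, and points are shifted slightly. Members with fewer than 3 Clec4g UMIs reach sums of 43 and those with at least 3 reach 41, while 2 cells lie just below the threshold at a sum of 2.

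The label was set beside 5 biliary markers, of which 3 chose the cells and Spp1 and Krt18 did not. Spp1, the secreted phosphoprotein osteopontin, had 10 to 520 UMIs in the 42 Clec4g-low cells, with a median of 191.5, whereas no sinusoidal cell had more than 2. Krt18, a simple-epithelial keratin, had 1 to 65 UMIs with a median of 24, whereas no sinusoidal cell had more than 3. These 2 classes did not overlap for Spp1, and for Krt18 they overlapped at 1 to 3 UMIs. The 4 Clec4g-low mesothelial-marked members, left out here, had no Spp1 UMI and 0 to 4 of Krt18. Levels are given in CPM, the UMIs of a gene relative to all UMIs of the class. Spp1 stood at 23977 in the Clec4g-low cells and 5.17 in sinusoidal cells, a ratio of 4638 (3958 to 5472). Krt18 stood at 2889 CPM and 1.13 CPM, a ratio of 2548 (1813 to 3697). Depth differed, with medians of 8649.5 UMIs in the Clec4g-low cells and 4648.5 in sinusoidal cells, so each cell was also thinned to 2000 UMIs, leaving out 1 and 153 shallower cells. After thinning, Spp1 was found in 100% of the Clec4g-low cells and 1.12% of sinusoidal cells, and Krt18 in 100% and 0.193%. The sinusoidal shares serve as the background for these genes.

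Genes were counted as measured at 50 CPM in either class, and ratios are on the log2 scale after 1 CPM was added to both. Between all 46 Clec4g-low members and the sinusoidal cells, 567 of 4901 measured genes were at least 4-fold higher (11.6%) and 734 at least 4-fold lower (15%). Without the 4 mesothelial-marked cells, 560 of 4848 genes were higher (11.6%) and 818 lower (16.9%). Because the cells were chosen for epithelial genes, these counts describe the classes and were not tested. Of 105 genes in biliary lists, which leave out the 3 genes of the rule, 72 were measured, and 60 of them were at least 4-fold higher in the 42 cells, 2 lower and 10 between. Their median log2 ratio was 6.81, or 7.30 with genes at 0 in sinusoidal cells set to the limit of 3 counts, against -0.15 over all measured genes.

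**Figure D3:**
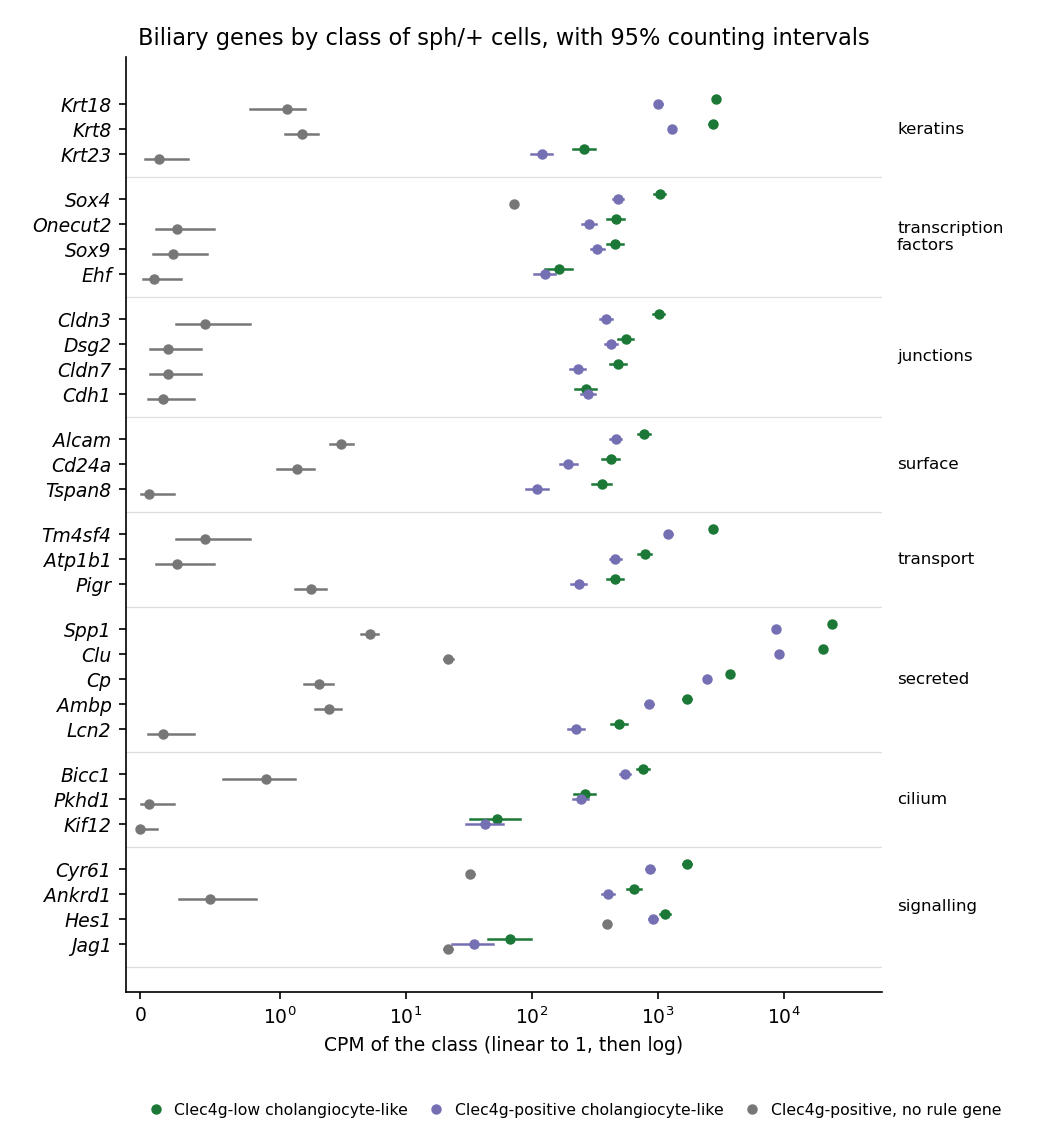
Level in CPM (x axis, linear to 1 and logarithmic above it) of biliary genes, grouped by role, in 42 Clec4g-low cholangiocyte-like cells, 55 Clec4g-positive cholangiocyte-like cells and 5862 sinusoidal cells of the sph/+ library; lines are exact Poisson 95% intervals. The Clec4g-low cells lie highest for most genes, with Spp1 at 23977 CPM, and the Clec4g-positive cells mostly lie between them and the sinusoidal cells, with Spp1 at 8707 CPM.

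All 3 measured keratins of the list were higher. Krt8, the partner of Krt18 in simple epithelia, stood at 2719 CPM in the Clec4g-low cells and 1.5 CPM in sinusoidal cells. Krt23 stood at 259 CPM and 0.133 CPM. Krt20, a keratin of intestinal epithelium, had no UMI in the 42 cells.

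All 7 measured transcription factors were higher as well. Sox9, a factor of ducts and biliary progenitors, had 0 to 14 UMIs in the Clec4g-low cells, with a median of 4, and was found in 39 of 42. Its level was 459 CPM in these cells and 0.233 CPM in sinusoidal cells. Onecut2, a relative of the duct-forming factor HNF6, stood at 461 CPM and 0.267 CPM. Ehf, an epithelial ETS factor, stood at 165 CPM and 0.100 CPM. Sox4 was the factor with the smallest difference, at 1033 CPM in the Clec4g-low cells and 72.2 CPM in sinusoidal cells, a ratio of 14.3 (12.8 to 15.9). Onecut1, Foxa1, Elf3 and Grhl2 were below the level at which a gene counted as measured, between 32.4 and 37.4 CPM.

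Of 15 measured junction and adhesion genes, 14 were at least 4-fold higher. Cldn3, a tight-junction claudin, stood at 1015 CPM in the Clec4g-low cells and 0.467 CPM in sinusoidal cells. Cldn7 stood at 484 CPM and 0.200 CPM, and the desmosomal cadherin Dsg2 at 556 CPM and 0.200 CPM. Cdh1, which encodes E-cadherin, had 267 CPM and 0.167 CPM, with 1 to 6 UMIs in 38 of 42 cells. Claudins 4, 6 and 8 had 107, 125 and 52.4 CPM in the 42 cells and no UMI in sinusoidal cells. The exception was Jup, which encodes a junction protein that endothelium also uses, at 52.4 CPM and 56.5 CPM. Among 6 measured genes for epithelial proteases, splicing and trafficking, 5 were higher. St14, Spint1 and Prss8, a membrane protease, an inhibitor and another protease, stood at 97.3, 135 and 52.4 CPM with no UMI in sinusoidal cells. Spint2, at 387 CPM and 98.0 CPM, stayed below 4-fold at 3.94.

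All 8 measured surface proteins were higher. Alcam, an adhesion molecule, stood at 776 CPM in the Clec4g-low cells and 3.07 CPM in sinusoidal cells, Cd24a at 422 CPM and 1.37 CPM, and Prom1 at 177 CPM and 0.0667 CPM. Fgfr3, a fibroblast growth factor receptor, was the least separated, at 244 CPM and 20.4 CPM. Sctr, the receptor for the duct hormone secretin, had 9 UMIs in 7 cells.

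Transport genes were mixed, with 8 of 12 measured members at least 4-fold higher, 1 lower and 3 between. Tm4sf4, a tetraspan membrane protein, had 2 to 54 UMIs in the 42 cells, with a median of 26, and at most 1 in any sinusoidal cell. Its level was 2741 CPM and 0.467 CPM, a ratio of 5872 (3485 to 10776). Atp1b1, a sodium pump subunit, stood at 783 CPM and 0.267 CPM, Slc5a1, a sodium-glucose transporter, at 187 CPM and 0.100 CPM, and Pigr, the receptor that carries immunoglobulin A into bile, at 454 CPM and 1.77 CPM. Cftr, the chloride channel of duct secretion, had 4 UMIs in 4 cells and was too low to be measured. The bicarbonate exchanger gene Slc4a2 stood at 59.9 CPM and 34.0 CPM. Aqp1, a water channel of both ducts and sinusoids, was lower in the Clec4g-low cells, at 77.3 CPM against 4815 CPM in sinusoidal cells.

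Secreted proteins held the highest levels of any list. The 7 measured members were all higher, and the 11 listed genes summed to 50568 CPM in the Clec4g-low cells and 31.8 CPM in sinusoidal cells. Clu, the chaperone clusterin, stood at 20340 CPM and 21.7 CPM, a ratio of 938 (866 to 1018). The copper-binding ceruloplasmin gene Cp stood at 3717 CPM and 2.03 CPM, and Ambp, the precursor of bikunin, at 1691 CPM and 2.43 CPM. Lcn2, an iron-scavenging lipocalin, had 494 CPM and 0.167 CPM. Dmbt1 had no UMI, and Mmp7, Tff2 and Cxcl5 were below 50 CPM.

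Of 5 measured cilium genes, 4 were at least 4-fold higher and 1 between. Pkhd1, which encodes the ductal protein fibrocystin, had 0 to 8 UMIs in the Clec4g-low cells, with a median of 2, and was found in 35 of 42. Its level was 262 CPM in these cells and 0.0667 CPM, from 2 UMIs, in sinusoidal cells. Bicc1, an RNA-binding protein whose loss gives cysts, stood at 766 CPM and 0.900 CPM, and Kif12, a kinesin of hepatobiliary epithelia, at 52.4 CPM with no UMI in sinusoidal cells. Ift57, a subunit of intraflagellar transport, stood at 94.8 CPM and 4.50 CPM. The exception was Pkd2, a polycystin gene, at 77.3 CPM and 78.1 CPM.

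Signalling genes were the most mixed list, with 4 of 9 measured members at least 4-fold higher, 1 lower and 4 between. Cyr61 and Ankrd1, both known targets of the growth-controlling coactivator YAP, stood at 1694 and 649 CPM in the Clec4g-low cells and 32.2 and 0.500 CPM in sinusoidal cells. Ctgf, another known YAP target, stayed below 4-fold, at 99.8 CPM and 41.5 CPM, and Yap1 itself stood at 42.4 CPM and 54.5 CPM. Pdgfa and Tgfb2, ligands for neighbouring mesenchyme, stood at 170 and 77.3 CPM, against 5.67 and 1.77 CPM. The Notch target Hes1 was below 4-fold, at 1145 CPM and 394 CPM, as was the Notch ligand Jag1, at 67.4 CPM and 21.6 CPM. The receptor Notch1 was lower, at 12.5 CPM against 433 CPM in sinusoidal cells, while Notch2 had 22.5 CPM against 2.20 CPM and was not measured.

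The Ankrd1 promoter is shown with its matches to GGAATG, the sequence bound by the TEAD partners of YAP. Matches per promoter were counted for this gene only. It comes from RefSeq (GRCm38.p6), chr19:36119845-36120094 on the minus strand, read 5′ to 3′ up to the base before the annotated start. Capitals mark the 2 matches, which begin 210 and 123 bases before the start.

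Ankrd1: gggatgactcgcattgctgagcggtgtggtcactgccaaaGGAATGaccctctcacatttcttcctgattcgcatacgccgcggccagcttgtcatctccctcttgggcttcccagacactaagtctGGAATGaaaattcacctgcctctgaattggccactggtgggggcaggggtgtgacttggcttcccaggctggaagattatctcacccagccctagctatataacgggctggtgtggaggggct

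Of 108 biliary genes, rule genes included, 70 matched a promoter in the table. On either strand of the 250 bases before the start, these letters occurred in 13 of the 70 genes (18.6%) and in 3880 of all 27025 genes (14.4%). The 13 included Ankrd1 and also the signalling genes Notch1, which was lower in the Clec4g-low cells, and Yap1, which was not higher. A match of letters is a description and does not show binding.

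Outside the lists, the genes with the highest ratios in the 46 Clec4g-low members were Tstd1, Ces1d, Sftpd, Igfbp6, Sorbs2, Scara3, Cxcl13, Ddit4l, Pdzk1ip1, Tesc, Cadm1 and Lurap1l. Igfbp6 and Cxcl13 came wholly from the mesothelial-marked cells, with no UMI in the 42 others. The remaining 10 were found in 34 to 42 of the 42 cells. Tstd1, a sulfurtransferase-domain gene, stood at 1384 CPM in the 42 cells and 1.30 CPM in sinusoidal cells, and Sftpd, the innate immune lectin surfactant protein D, at 656 CPM and 0.133 CPM. Ces1d, a carboxylesterase, stood at 1023 CPM and 0.767 CPM, and Cadm1, a cell adhesion molecule, at 434 CPM and 0.233 CPM. The lowest were Lrrc32, Ifi207, Il1a, Sox18, Rnf145, Enpp6, Fscn1 and Gimap6. The first 7 had no UMI in the 46 cells and 103 to 222 CPM in sinusoidal cells. Gimap6, a gene of the same family as Gimap5, had 4.99 CPM in the 42 cells and 505 CPM in sinusoidal cells.

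Endothelial transcripts were nearly absent from the 42 Clec4g-low cells, the CD31 gene included. Pecam1 had 7 UMIs in 5 of the 42 cells, or 17.5 CPM, against 721 CPM in sinusoidal cells. Cdh5, which encodes VE-cadherin, had 1 UMI in all 42 cells. With Clec4g, which chose the classes, left out, all 9 measured LSEC markers and all 11 measured pan-endothelial markers were at least 4-fold lower, with median log2 ratios of -5.66 and -5.60. Over all measured genes 16.9% were at least 4-fold lower. Because the rule placed the classes on either side of 3 Clec4g UMIs, these lower endothelial levels are a description. Ptprc, which encodes CD45, had no UMI. Clec4g itself, held below 3 UMIs by the rule, had none in 27 of the 42 cells. Lymphocyte, neutrophil and erythroid markers had no UMI, and 9 of 10 macrophage markers were at 0, with 8 Csf1r UMIs. Prox1, a factor of both lymphatic endothelium and hepatobiliary epithelium, had 387 CPM, whereas the lymphatic markers Mmrn1 and Ccl21a were at 0. Cycling markers summed to 19 UMIs, 1 of them Mki67.

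**Figure D4:**
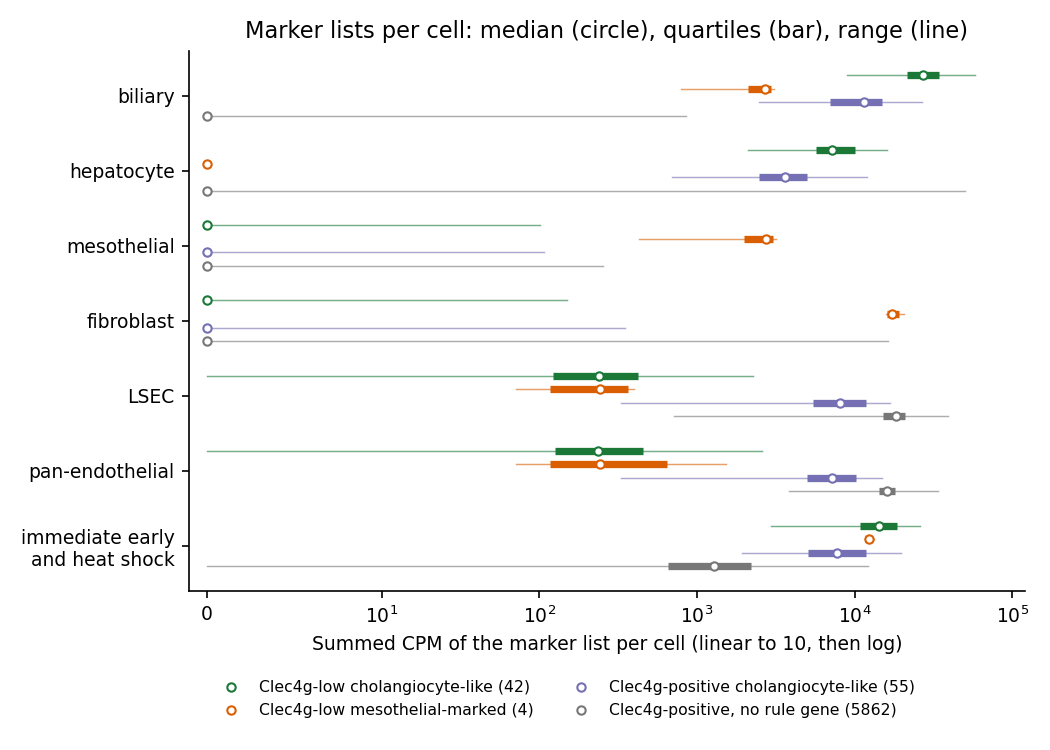
Summed CPM of 7 marker lists per cell (x axis, linear to 10 and logarithmic above it) in 42 Clec4g-low cholangiocyte-like cells, 4 Clec4g-low mesothelial-marked cells, 55 Clec4g-positive cholangiocyte-like cells and 5862 sinusoidal cells; circles are medians, bars quartiles and lines ranges. The biliary list holds the 3 genes that chose the members, the LSEC list holds Clec4g, the mesothelial list chose the mesothelial-marked cells, and the hepatocyte list has a median of 7195 CPM in the Clec4g-low cholangiocyte-like cells and 0 in sinusoidal cells.

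Transcripts of a pair of secreted liver proteins were present in all 42 Clec4g-low cells, with few from the rest of the hepatocyte list. Alb, which encodes albumin, had 8 to 129 UMIs in the 42 cells, with a median of 43, and Ttr, the thyroid hormone carrier transthyretin, had 2 to 62 with a median of 24. Their levels were 4797 and 2612 CPM in these cells, against 67.5 and 24.8 CPM in sinusoidal cells. Together they made up nearly all 3033 hepatocyte-list UMIs of the 42 cells, Alb 63.4% and Ttr 34.5%. Apoa1, an abundant hepatocyte apolipoprotein, made up 0.132% (0.0359 to 0.337), against 14.3% (13.3 to 15.3) of the 4611 hepatocyte-list UMIs of sinusoidal cells. Fabp1, a fatty acid binding protein of hepatocytes, made up 0.198% and 9.63%. Cyp3a11, Cyp2e1 and Cps1, enzymes of hepatocyte metabolism, had no UMI in the 42 cells. Other liver genes outside the list, chosen after their values were seen, were present too. Trf was found in 37 of the 42 cells at 1180 CPM, Ahsg in 25 at 1187 CPM and Serpina1c in 15 at 289 CPM. In sinusoidal cells they stood at 12.2, 9.17 and 13.3 CPM.

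The Clec4g-low cells also differed from one another in 2 genes that were chosen after their values were seen. Ahsg, which encodes the liver plasma protein fetuin-A, had 476 UMIs in 25 of the 42 cells, with a median of 2.5 and a maximum of 102. Tspan8, a tetraspanin, had 143 UMIs in 29 cells, with a median of 2 and a maximum of 27. For each gene the 4 highest cells held much of the total, 58.4% for Ahsg and 44.8% for Tspan8. In the 12 cells with at least 10 Ahsg UMIs, Tspan8 had 10 UMIs in 4 cells, or 69.6 CPM (33.4 to 128). In the 17 cells with no Ahsg UMI it had 103 in 16 cells, or 709 CPM (579 to 860). Sftpd stood at 410 CPM in these 12 cells and 1143 CPM in the 17, and Lcn2 at 285 CPM and 764 CPM. Trf and Serpina1c, chosen the same way, were higher in the 12 cells, at 1906 and 570 CPM against 688 and 27.5 CPM. Serpina1c was found in only 5 of the 12 cells and 2 of the 17. Of its 82 UMIs in the 12 cells, 63 came from a single cell. Spp1 barely differed, at 24449 CPM and 23974 CPM. In the Clec4g-positive cholangiocyte-like cells, Tspan8 had 44.8 CPM (25.6 to 72.8) in 21 cells with at least 10 Ahsg UMIs and 206 CPM (159 to 262) in 24 cells with none. There Tspan8 was found in 6 of the 21 cells and 16 of the 24, and Sftpd stood at 188 and 206 CPM. Ankrd1, with 0 to 28 UMIs among the 42 cells, stood at 751 CPM in the 12 cells and 716 CPM in the 17. Groups were set by raw Ahsg UMIs without thinning to equal depth, and cells between these limits were left out. The intervals count pooled UMIs and leave out the spread between cells.

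**Figure D5:**
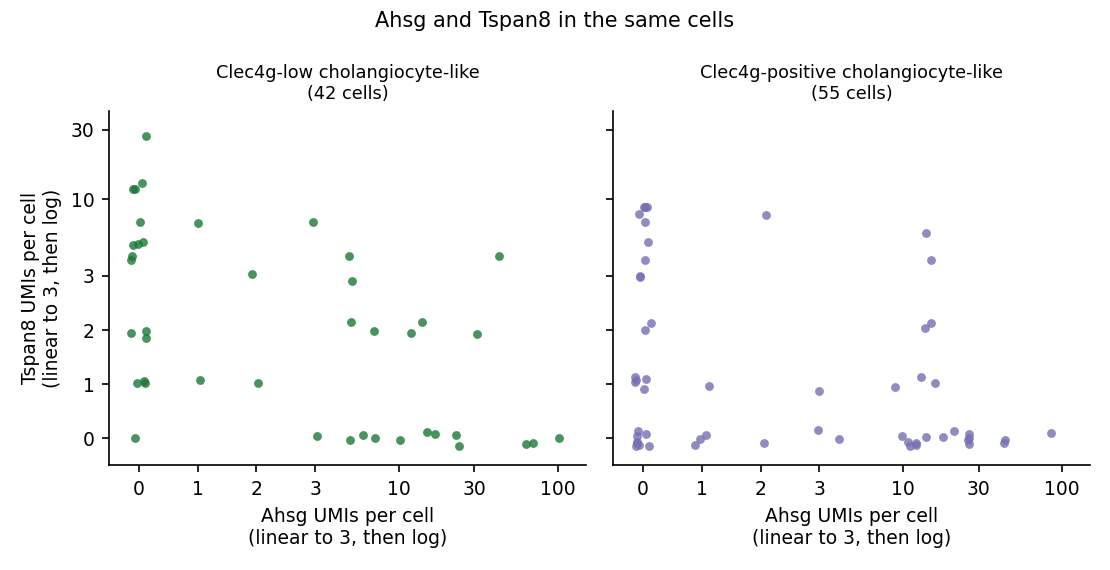
Ahsg UMIs (x axis) and Tspan8 UMIs (y axis) in each of 42 Clec4g-low cells (left) and 55 Clec4g-positive cholangiocyte-like cells (right), with axes linear to 3 and logarithmic above it and points shifted slightly. Cells with 10 or more Ahsg UMIs mostly have 0 to 2 Tspan8 UMIs, as do many cells on the right with no Ahsg UMI.

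Immediate early genes, which respond within minutes to stimuli that include tissue dissociation, were higher in the 42 cells. All 5 measured members of the stress list were at least 4-fold higher, with Jun at 4902 CPM and 413 CPM, Fos at 2914 CPM and 436 CPM, and Atf3 at 2205 CPM and 5.30 CPM. The summed list stood at 14231 CPM in the Clec4g-low cells and 1642 CPM in sinusoidal cells. The heat shock gene Hspa1a had 7 UMIs, or 17.5 CPM, against 10.6 CPM. The share of mitochondrial UMIs was alike, with medians of 5.29% and 5.72%. The part of these transcripts in the other differences was not tested.

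Summed as a class, the 55 Clec4g-positive cholangiocyte-like cells carried both programmes at intermediate levels. Single cells varied widely, with the LSEC list, Clec4g included, at 330 to 16878 CPM per cell and a median of 8080 CPM. This range overlapped those of the Clec4g-low cells, 0 to 2281 CPM, and of sinusoidal cells, 715 to 39281 CPM. Epcam was found in all 55, all 3 rule genes in 33, Krt19 with Epcam in 20 and Epcam alone in 2. Clec4g, at least 3 UMIs in both classes by the rule, stood at 1830 CPM in the 55 cells and 3790 CPM in sinusoidal cells. Of 56 measured genes of the biliary lists, 46 were at least 4-fold higher than in sinusoidal cells and none lower, with a median log2 ratio of 6.38. Over all measured genes, 276 of 4435 were higher (6.22%) and 0 lower (0%), and for all 58 Clec4g-positive members 290 of 4451 were higher (6.52%) and 0 lower. Their levels were a median 0.564 times those of the Clec4g-low cells over 70 biliary genes (quartiles 0.454 and 0.729). The LSEC list without Clec4g, which chose both classes, stood at a median 0.529 times its level in sinusoidal cells (9 genes), and the pan-endothelial list at 0.507 times (11 genes). Pecam1 was found in 52 of the 55 cells, at 359 CPM. Single genes departed from the median, with Cdh1 at 1.04 times and Pkhd1 at 0.932 times the level of the Clec4g-low cells, and Spp1 at 0.363 times.

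These cells were also deeper, with a median of 14021 UMIs and 4777 genes, against 8649.5 UMIs and 3258 genes in the Clec4g-low cells. The doublet caller Scrublet failed on its automatic threshold, which marked 1 of 6183 cells. A score cut-off was then set from the expected rate of 4.95%, and 363 of 6183 cells (5.87%) lay at or above it. They were 14 of the 55 cells (25.5%), 0 of the 42 Clec4g-low cells and 345 of the 5862 sinusoidal cells (5.89%). Whether these barcodes hold more than 1 cell was not tested.

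The 7 mesothelial-marked members were alone among the 104 in lacking Epcam. Spp1, Sox9, Cdh1 and Alb were also at 0 in all 7. The 4 with low Clec4g had 9, 29, 36 and 42 Krt19 UMIs, and Krt19 stood at 1990 CPM in them, against 636 CPM in the Clec4g-low cholangiocyte-like cells. Krt18 was the reverse, at 137 CPM and 2889 CPM. Mesothelial genes, which chose these cells, included Upk3b at 840 CPM and Wt1 at 669 CPM. Fibroblast markers, which did not, summed to 18009 CPM, against 7.48 CPM, with the matrix proteoglycan Dcn at 12281 CPM and the collagen Col3a1 at 3139 CPM. Igfbp6, Cxcl13 and Enpp2 stood at 4923, 4305 and 1870 CPM, with no UMI in the 42 cells, and 250 of the 251 Cxcl13 UMIs came from a single cell. Of 74 biliary-list genes measured between these classes, 58 were at least 4-fold lower in the mesothelial-marked cells and none higher, while over all 4782 measured genes 12.7% were lower and 12.3% higher. One of the 4 carried Wt1 without Msln or Upk3b, so its marking rests on Wt1 alone, with 6 UMIs. The same cell held the 250 Cxcl13 UMIs and had no Krt18 or Krt8 UMI, so its name is less certain.

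In the sph/sph library, 9 of 6606 kept cells met the same rule (0.136%, 0.0623 to 0.258), against 104 of 6183 in sph/+. These 9 had 3 to 9 Krt19 UMIs and no Epcam, Krt7, Spp1, Krt18, Sox9, Cdh1, Cldn3 or Clec4g UMI, and all had Cdh5, with 1 to 15 UMIs. Of the 9, 1 cell met the mesothelial mark used for sph/+, with 3 Wt1 UMIs. No sph/sph cell met the rule with both Krt19 and Epcam, which allows a share of up to 0.0454%, whereas 94 sph/+ cells did (1.52%). Over all kept sph/sph cells Epcam had 2 UMIs and Spp1 had 7. Genotype, mouse, sort and library cannot be told apart here.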

How the data were processed

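Single-cell RNA was measured in 2 libraries made with the 10x Genomics 3' kit, version v3. The submitters' processing notes name Cell Ranger 3.0 and the mm10 build, and the file headers name software 3.1.0. Which annotation release they used is not given in the sources used here. Both deposited matrices hold raw UMI counts over 31053 genes, not normalized by the authors.

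Cells were kept with at least 500 genes, 1000 UMIs and at most 15% mt- UMIs. The planned unit was the barcode. Once duplicate entries were seen, 1 entry was kept per 16-base barcode, and the other treatments became alternatives. Counts were summed per class, scaled to CPM and compared as ratios, with exact Poisson, Clopper-Pearson or, for ratios, exact binomial 95% intervals. Cells are not replicates, so nothing was tested. Kept cells had medians of 4099.5 UMIs in sph/sph and 4648 in sph/+. Doublets were scored with Scrublet (scanpy 1.11.5) and not removed. Genes named outside the lists have the 12 highest and 8 lowest ratios of Clec4g-low members over sinusoidal cells, once genes without a name, sex-linked genes and those for immunoglobulins, haemoglobins, ribosomal or mitochondrial products were set aside. The promoter is from RefSeq (GRCm38.p6). Results for some listed genes are not reported here. The members and lists were chosen with earlier results of these data known. Ratios were tested on simulated data. Python 3.11.15, numpy 2.4.6, scipy 1.17.1 and pandas 2.3.3 were used.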

Additional observations from a re-analysis of the deposited data

How the results depend on the processing

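Keeping both deposited entries gave 206 members and 96 Clec4g-low members in place of 104 and 46. This alternative and the use of a single suffix, which gave 102 or 104 members, were chosen after seeing the data, as was leaving Clec4g out of the LSEC list, where keeping it gave 0.519 in place of 0.529 for the Clec4g-positive cells and 1.29 in place of 1.27 for the central genes. The count of genes at least 4-fold higher in Clec4g-low members, 567, became 1068 when genes were measured at 20 CPM, 302 at 100 CPM and 1040 at 2-fold, and the count lower, 734, became 1426 at 2-fold. The median log2 ratio of the biliary lists, 6.73 for all Clec4g-low members and 6.29 for all Clec4g-positive members, became 5.83 and 5.29 with genes measured at 20 CPM and 3.85 and 3.44 with 10 CPM added, and 7.05 for the Clec4g-positive members at 100 CPM. No median changed sign in 18 settings each, and the other thresholds for the rule genes, Clec4g, mt- share, genes, doublet scores and mesothelial marking left counts within 1.5 times, from 90 to 106 members and from 31 to 60 Clec4g-low members. No paired analysis was possible because each genotype has 1 library. Ratios against a few sinusoidal UMIs have wide intervals, and 42 cells limit genes near 50 CPM to about 20 UMIs.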

Other observations

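Some genes of the central side of the sinusoid stood higher, relative to the LSEC list without Clec4g, in the 55 Clec4g-positive cholangiocyte-like cells than in sinusoidal cells. The gene lists were chosen after the data were seen. Of 6 central genes, Rspo3 stood at 1.86 (1.47 to 2.33), Cdh13 at 1.34 (1.07 to 1.65), Kit at 1.24 (1.05 to 1.45) and Wnt2 at 1.21 (1.05 to 1.39). Thbd stood at 1.12 (0.896 to 1.38) and Wnt9b at 0.972 (0.418 to 1.93). Rspo3, a Wnt enhancer secreted around the central vein, had 79 UMIs in 13 of the 55 cells. The 6 central genes summed gave 1.27 (1.17 to 1.38) and the 6 portal genes 0.957 (0.886 to 1.03), with single portal genes from 0.861 to 1.15. These ratios describe 1 library, and their intervals count pooled UMIs and leave out the spread between cells. Summed central genes ran from 0 to 3935 CPM in single cells of the 55. Whether a few cells account for the ratios was not tested.

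Genes of antigen presentation by class II molecules, another list chosen after the data were seen, were found in part of the cells. Cd74, the invariant chain, had 75 UMIs in 21 of the 42 Clec4g-low cells and stood at 187 CPM, against 6.14 CPM in sinusoidal cells, while Ptprc had no UMI. In the 4 Clec4g-low mesothelial-marked cells Cd74 stood at 2075 CPM, with 5, 13, 27 and 76 UMIs per cell. The cell with 76 was the one marked by Wt1 alone.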
